A study of Mus musculus with 44 samples.

Results

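Integrins and cadherins are the membrane receptors with which cells hold on to the extracellular matrix and to each other. They were taken from both gene count tables as the protein-coding genes whose symbols begin with Itga, Itgb or Cdh and continue as a subunit or cadherin number does. This gave 51 of 54532 genes, of which 18 encode integrin α subunits, 9 encode integrin β subunits or β-like chains and 23 encode cadherins. The remaining gene, Itgb3bp, matches by name only, since its product is a nuclear protein and no integrin. Besides the classical cadherins of types I and II, the naming rule also takes in members of other branches, such as the GPI-anchored Cdh13, the intestinal Cdh17 and Cdh23, a component of hair cell tip links.

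An integrin is a heterodimer of an α and a β chain, and the pairing sets the ligand. Chains that pair with β1 bind fibronectin, laminin or collagen, αv pairs with several β chains to bind vitronectin and latent TGF-β, and the β2 integrins belong to leukocytes. Classical cadherins bind the same or a similar cadherin on the next cell, and β-, α- and p120-catenin tie their tails to actin. N-cadherin (Cdh2) is the main classical cadherin of neurons. FRMD5, the protein studied in this series, has a FERM domain, and binding to the tail of integrin β5 (Itgb5) and to p120-catenin (Ctnnd1) has been described for it, so these genes are given in each comparison.

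Polyadenylated RNA was sequenced in 44 mouse libraries, 4 in each of 11 groups. L929, an established mouse fibroblast line, gave a control group and 3 groups labelled with constructs of FRMD5 isoform 2, which were the full-length form, a form without the combined intrinsically disordered regions (delta-IDR) and a form without the coiled coil and the low-complexity domains (delta-CC-LCD). Primary cortical neurons gave 7 groups, namely control peptide at 100 µM without dexamethasone (DEX), control peptide at 100 µM with DEX, and an interfering peptide at 1, 3, 10, 30 or 100 µM with DEX. DEX is a synthetic glucocorticoid, and treatment lasted 4 hours. The series text gives these 4 hours of DEX for the L929 cells with FRMD5 constructs, but neither it nor the labels give a DEX treatment or its time for the L929 control, and if the control had none, construct and DEX cannot be told apart in comparisons with that group. They give neither the promoter of the constructs nor the number of clones, and they do not say whether the libraries of a group are separate cultures, so the p-values may measure technical spread only.

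Libraries held 17211270 to 18313407 counts in L929 and 13685236 to 17083701 in neurons. Mouse Frmd5 was at most 0.458 CPM (counts scaled to a common library size) in any L929 library and had group means of 83.0 to 93.5 CPM in neurons, so its count does not check the L929 construct labels. Fibroblast markers summed to 9280 to 12000 CPM per L929 library, against 0.105 to 1.32 CPM for neuron markers and 0 to 0.367 CPM for epithelial markers. Neuron markers summed to 2600 to 3100 CPM in the neuron libraries, which also held astrocyte (241 to 316 CPM), endothelial (89.4 to 121 CPM) and microglial (37.3 to 50.3 CPM) markers. In L929 the last 3 lists summed to 39.6 to 64.7, 2.01 to 4.61 and 57.4 to 85.4 CPM. The microglial sum by itself therefore does not show microglia. Oligodendrocyte lineage markers summed to 233 to 331 CPM in L929 and to 77.7 to 108 CPM in neurons. The fibroblast list summed to 643 to 759 CPM in the neuron libraries. Mural and meningeal markers summed to 50.8 to 69.7 CPM there and to 2700 to 3370 CPM in L929. In such bulk samples, fewer cells of a type and less RNA per cell cannot be told apart. L929 delta-IDR library 3 alone held Dcn (22 counts), Lum (18), Cdh11 (12) and Rgs5 (9), which were at 0 in the other L929 libraries. Libraries 1 and 3 of a group resembled each other, as did 2 and 4, more than other pairs did, in neurons and less clearly in L929. The mean correlation of their deviations from the group mean was 0.0256 and 0.0412 in neurons, against -0.529 to -0.491 for other pairs. In L929 it was -0.182 and -0.121, against -0.468 to -0.399. Deviations from a shared group mean tend to correlate negatively, so only the contrast between pairs is read. A mean chi-square of counts per gene, lower for libraries more alike, was 2.83 and 2.82 in neurons, against 4.71 to 5.32. In L929 the chi-square was 5.52 and 4.51, against 6.04 to 8.03. Comparisons were therefore also made on counts summed within these pairs.

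L929 cells carried mostly integrins, and neurons carried both families. A gene was tested where its counts passed edgeR's low-count filter, and 22 of the 51 genes passed in L929 (17 integrins, 4 cadherins and Itgb3bp) and 39 in neurons (22 integrins, 16 cadherins and Itgb3bp). Levels were compared between genes per length, as RPKM, and the tables of the 2 cell types were scaled separately, so no test was made across them. In control L929 cells the order of levels in RPKM was led by Itgb1 (105 ± 1.18, SD, n = 4), followed by Itgb5 (49.5 ± 1.11), Itga5 (20.5 ± 0.717), Itgav (18.7 ± 0.614), Itga6 (10.6 ± 0.329), Itgb7 (10.6 ± 1.27) and Itga3 (8.64 ± 0.411). The leading cadherin there was Cdh24 at 4.21 RPKM. Itga6 and Itgb7 did not differ beyond their spread.

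In neurons given control peptide without DEX, Cdh2 led at 59.1 ± 2.19 RPKM (SD, n = 4), ahead of Itgb1 at 52.2 ± 1.56. R-cadherin (Cdh4) followed at 14.96 ± 1.07 RPKM, then Cdh24 (11.7 ± 0.866), Itga6 (9.29 ± 0.0474), Cdh8 (8.53 ± 0.545), Cdh13 (7.67 ± 0.74), Itgb8 (5.22 ± 0.337), Cdh11 (4.54 ± 0.453) and Cdh6 (4.10 ± 0.184). Cdh8 and Cdh13 overlapped within their SD. Ordered by CPM, 10 of these 10 stayed among the leading 10 genes, and 9 of 10 did in L929. Several classical cadherins of neurons were close to absent from L929, where Cdh2 held 31 counts over 16 libraries, Cdh6 held 65, Cdh11 held 12 and Cdh4 held 4. The type II cadherins Cdh24 (3754 counts) and Cdh9 (1331 counts) were present in L929 too. E-cadherin (Cdh1) held 8 counts and P-cadherin (Cdh3) 93.

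**Figure D1:**
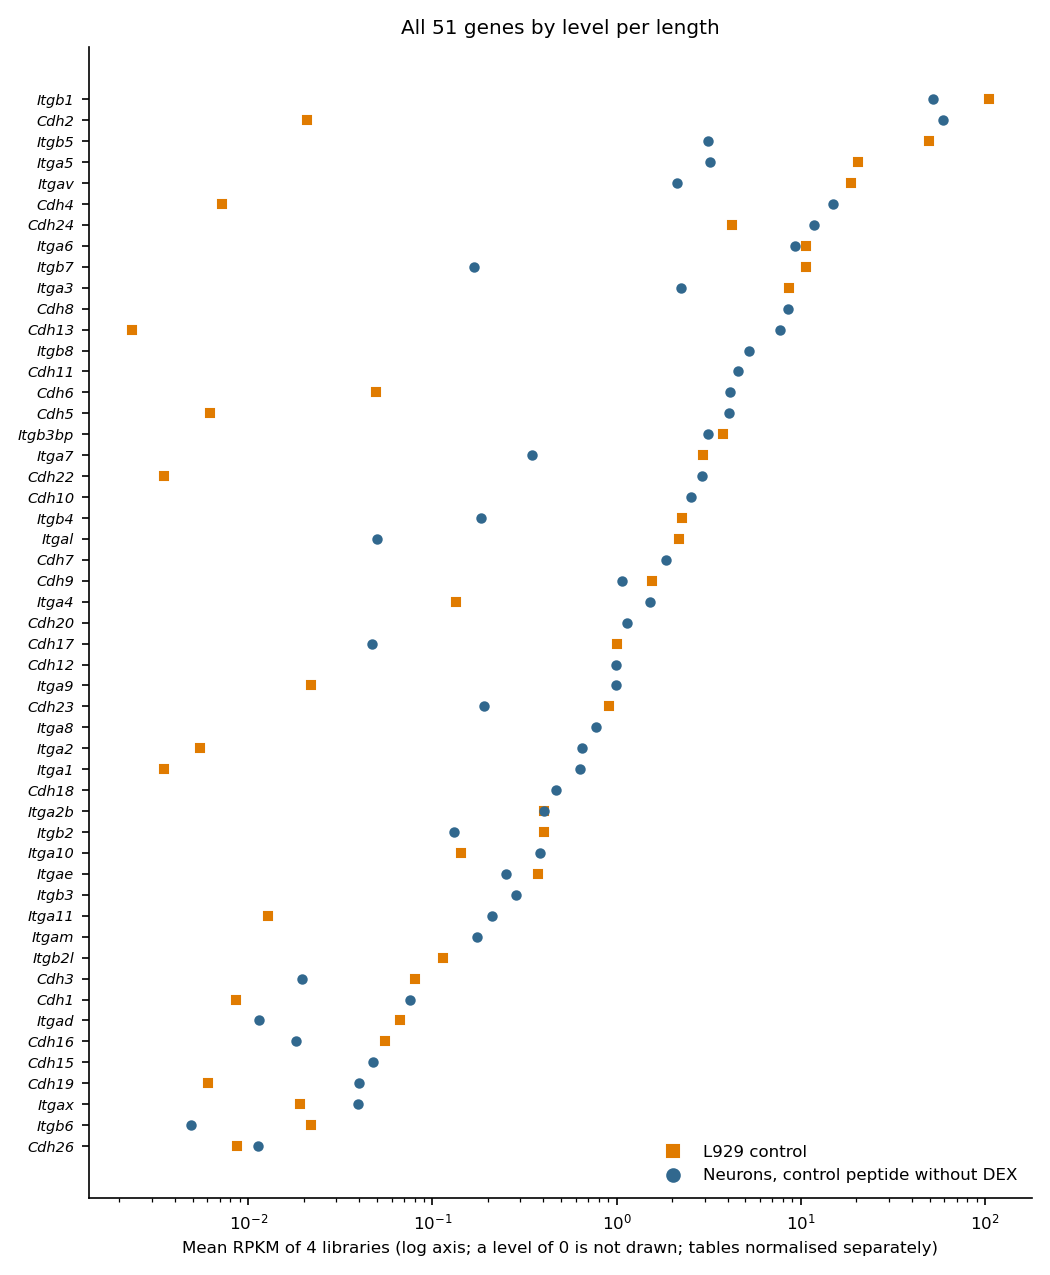
Mean level per gene in control L929 cells and in neurons given control peptide without DEX, in RPKM on a logarithmic axis. Itgb1 is high in both tables, while Cdh2 leads in neurons at 59.1 RPKM and is near 0 in L929. The tables were scaled separately.

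Of the genes below the filter, the 29 in L929 had a highest group mean of 0.495 CPM and 0 to 93 counts in total, and Cdh7, Cdh8, Cdh10, Cdh18 and Cdh20 were at 0 in every L929 library. The others were Cdh1, Cdh2, Cdh3, Cdh4, Cdh5, Cdh6, Cdh11, Cdh12, Cdh13, Cdh15, Cdh16, Cdh19, Cdh22, Cdh26, Itga1, Itga2, Itga8, Itga9, Itga11, Itgam, Itgax, Itgb2l, Itgb3 and Itgb8. In neurons the 12 were Cdh1, Cdh3, Cdh15, Cdh16, Cdh17, Cdh19, Cdh26, Itgad, Itgax, Itgb2l, Itgb6 and Itgb7, with a highest group mean of 0.62 CPM and 5 to 211 counts. Cdh17 and Itgb6, which differed between L929 groups, were thus too low to test in neurons.

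The sources used here do not say whether counting used strand, so genes with overlapping exons are uncertain. In an annotation of the same build (GENCODE M21), 68.7% of the exon bases of Itgam lie in Gm49368 and 33.5% of those of Itga10 in Gm42957, both on the same strand. For Itgb3bp 8.59% lie opposite Pgm1, for Itga4 8.04% opposite Cerkl and for Itgb4 7.66% opposite B230344G16Rik. Cdh9 (6.33%), Itgav (5.9%), Itga8 (5.05%), Itga1 (3.68%), Cdh12 (3.14%) and Itgad (up to 8.6% for 1 of 4 neighbours) overlap other genes as well.

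In L929, integrin α5 (Itga5), which pairs with β1 as the main fibronectin receptor, was 4 to 6 times the control level in each construct group. Its 4 control libraries measured 95.9, 104, 101 and 103 CPM, against 527, 547, 516 and 532 with full-length FRMD5. The delta-IDR libraries measured 414, 391, 408 and 450 CPM, and the delta-CC-LCD libraries measured 582, 572, 555 and 561. All construct libraries lay far above all controls, and the delta-IDR libraries lay below all those of the other constructs. The log2 change against control was 2.39 ± 0.04 (standard error) for full-length, 5.26-fold, with an adjusted p of 1.25e-28 in edgeR's quasi-likelihood test. For delta-IDR it was 2.04 ± 0.04 (4.12-fold, adjusted p = 7.69e-27) and for delta-CC-LCD 2.49 ± 0.04 (5.62-fold, adjusted p = 5.14e-29).

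Its β partner Itgb1 rose as well, by at most 0.28 on the log2 scale. Control libraries measured 431, 422, 430 and 432 CPM and full-length libraries 555, 499, 532 and 503, with construct means of 522 ± 26.1 (SD, n = 4), 490 ± 10.7 and 516 ± 5.63 CPM for full-length, delta-IDR and delta-CC-LCD. No construct library overlapped a control. The log2 changes were 0.28 ± 0.04 (adjusted p = 5.53e-08), 0.19 ± 0.04 (2.94e-05) and 0.27 ± 0.04 (1.42e-07). Itgb5, the αv partner, measured 172, 180, 179 and 173 CPM in control and 209, 192, 196 and 198 with full-length, and its log2 changes were 0.17 ± 0.04 (adjusted p = 0.000378), 0.25 ± 0.04 (2.59e-06) and 0.18 ± 0.04 (0.000239). The Itgb5 construct libraries lay above all controls on this scale. The factors that scaled library size (TMM) were 1.069 to 1.081 in control and 0.9496 to 0.9644 with full-length. They were 0.9943 to 0.9985 with delta-IDR and 0.9639 to 0.982 with delta-CC-LCD. Rises as small as those of Itgb1 and Itgb5 therefore rest on this scaling. The αv chain itself (Itgav) had means of 201 ± 6.60, 206 ± 18.31, 190 ± 5.13 and 192 ± 6.28 CPM in control, full-length, delta-IDR and delta-CC-LCD and was called in no comparison with control.

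Integrin β6 (Itgb6), an αv partner usually found in epithelium, was low throughout. It measured 0.209, 0.156, 0.104 and 0.157 CPM in control and 0.669, 0.782, 1.13 and 0.415 with full-length, 1.79, 1.15, 1.55 and 1.05 with delta-IDR, and 1.56, 0.88, 1.61 and 1.83 with delta-CC-LCD. Every construct library lay above every control. The log2 changes were 2.21 ± 0.46 (adjusted p = 0.000126), 3.09 ± 0.42 (1.53e-07) and 3.17 ± 0.41 (7.66e-08). Epithelial markers stayed at or below 0.367 CPM in sum. The collagen receptor chain Itga10 rose with delta-IDR by 0.83 ± 0.30 (adjusted p = 0.0173) and with delta-CC-LCD by 0.73 ± 0.31 (adjusted p = 0.039), and measured 0.53 ± 0.31 with full-length (adjusted p = 0.146). Its delta-IDR call was lost without control library 2 or delta-IDR library 1 (adjusted p of 0.06 to 0.0794), and its delta-CC-LCD call without control library 2 or 4 or delta-CC-LCD library 2, 3 or 4 (0.0518 to 0.141) and with DESeq2 (0.0647). Its count is uncertain because of the overlapping gene named above.

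**Figure D2:**
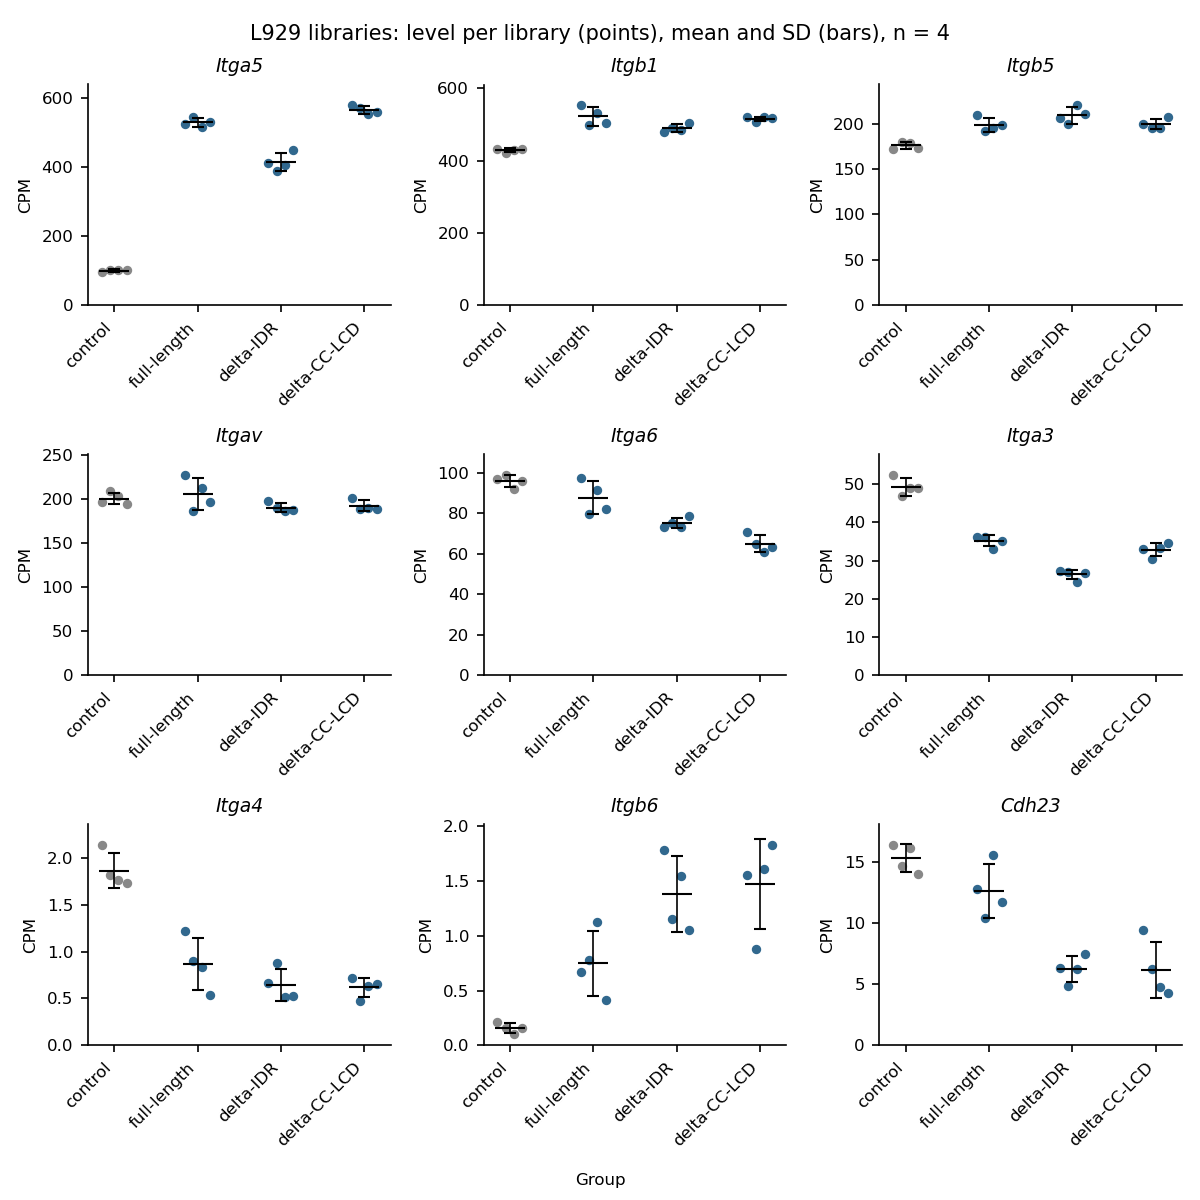
Level per library (points) of named integrins and cadherins in the 4 L929 groups in CPM, with mean and SD (bars, n = 4). Itga5 lies near 101 CPM in control and between 391 and 582 CPM in the construct libraries.

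The start regions of the 4 integrin chains that rose against control in each construct group, by amounts that differed widely, are shown. They are RefSeq sequences on GRCm38.p6, the assembly of mm10, from 250 bases before to 50 after the annotated start, 5′ to 3′ on the gene's strand, for Itga5 at chr15:103366742-103367041 (minus strand), Itgb1 at chr8:128685404-128685703 (plus), Itgb5 at chr16:33829415-33829714 (plus) and Itgb6 at chr2:60722554-60722853 (minus). Capitals mark every match, on either strand, to the motifs searched.
Itga5: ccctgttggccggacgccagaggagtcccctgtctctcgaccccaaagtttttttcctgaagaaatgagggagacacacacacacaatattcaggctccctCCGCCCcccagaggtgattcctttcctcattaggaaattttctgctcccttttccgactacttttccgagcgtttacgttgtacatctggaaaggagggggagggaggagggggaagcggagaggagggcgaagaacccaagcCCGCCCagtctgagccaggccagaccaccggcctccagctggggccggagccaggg
Itgb1: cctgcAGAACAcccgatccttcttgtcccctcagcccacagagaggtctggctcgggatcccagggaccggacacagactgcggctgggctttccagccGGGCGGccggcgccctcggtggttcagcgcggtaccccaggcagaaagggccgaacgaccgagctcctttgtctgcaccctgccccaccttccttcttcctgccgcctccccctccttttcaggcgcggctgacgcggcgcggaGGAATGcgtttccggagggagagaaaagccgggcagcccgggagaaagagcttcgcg
Itgb5: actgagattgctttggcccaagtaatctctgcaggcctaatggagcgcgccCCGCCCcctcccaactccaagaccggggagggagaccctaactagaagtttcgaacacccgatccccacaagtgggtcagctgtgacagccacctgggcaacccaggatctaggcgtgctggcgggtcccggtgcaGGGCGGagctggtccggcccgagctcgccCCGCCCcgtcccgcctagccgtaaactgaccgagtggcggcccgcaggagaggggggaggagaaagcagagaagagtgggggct
Itgb6: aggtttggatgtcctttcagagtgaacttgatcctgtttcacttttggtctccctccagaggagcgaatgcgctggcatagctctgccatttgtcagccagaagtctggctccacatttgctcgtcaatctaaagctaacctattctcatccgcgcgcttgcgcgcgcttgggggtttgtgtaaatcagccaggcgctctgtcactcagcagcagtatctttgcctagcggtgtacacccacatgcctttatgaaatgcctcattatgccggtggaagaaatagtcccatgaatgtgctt
The motifs were the full glucocorticoid response element (AGNACA and TGTNCT with 3 bases between), the shorter receptor motif AGAACA, AP-1 (TGANTCA), TEAD (GGAATG), the GC box (GGGCGG) and the CArG box. The full element holds AGAACA in some forms, so these searches overlap. Itga5 held 2 GC boxes, Itgb5 held 3, Itgb1 held 1 GC box, 1 TEAD motif and 1 AGAACA, and Itgb6 held none of the motifs. Of all 32817 RefSeq start regions of this length, 35.6% held a GC box, 14.7% TEAD, 19% AGAACA, 7.81% AP-1, 1.63% a CArG box and 0.064% the full element. Of the 51 genes, 33 had a start region, and among these 13 (39.4%) held a GC box, 7 (21.2%) AGAACA, 5 (15.2%) TEAD, 2 (6.06%) AP-1, and 0 the CArG box or the full element. The matched letters are a description of the windows only.

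Among the laminin-binding chains, Itga3 and Itga7 fell in each construct group, whereas Itgb1, their β partner, rose as given above. Integrin α3 (Itga3) measured 52.5, 46.8, 49.1 and 48.9 CPM in control, 36.2, 36.2, 33.1 and 35.1 with full-length, 27.2, 27.1, 24.5 and 26.8 with delta-IDR, and 33.0, 30.5, 33.4 and 34.7 with delta-CC-LCD. The control libraries lay above all others, and the delta-IDR libraries lay below all others. Itga3 fell by 0.49 ± 0.06 (adjusted p = 2.05e-08), 0.90 ± 0.06 (4.17e-14) and 0.58 ± 0.06 (4.35e-10) on the log2 scale. Integrin α6 (Itga6) had means of 96.1 ± 2.97, 87.7 ± 8.28, 75.1 ± 2.54 and 65.0 ± 4.11 CPM in control, full-length, delta-IDR and delta-CC-LCD. It fell by 0.36 ± 0.06 with delta-IDR (adjusted p = 2.06e-06) and by 0.56 ± 0.06 with delta-CC-LCD (3.85e-10). With full-length the fall of 0.13 ± 0.06 (0.0433) overlapped the control and was lost without control library 1, 2 or 4 or full-length library 2 or 4 (adjusted p of 0.0737 to 0.193) and with DESeq2 (0.0919).

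Integrin α7 (Itga7), a further laminin receptor chain, had means of 23.7 ± 1.13, 17.4 ± 1.28, 14.3 ± 0.967 and 17.3 ± 1.23 CPM in the same order and fell by 0.44 ± 0.08, 0.73 ± 0.08 and 0.46 ± 0.08 (adjusted p of 1.48e-05, 2.9e-09 and 8.41e-06). Its delta-IDR libraries lay below all others. Integrin β4 (Itgb4), which pairs with α6 in hemidesmosomes, had means of 15.8 ± 0.814, 12.6 ± 2.28, 11.1 ± 0.88 and 11.5 ± 0.855 CPM and fell by 0.33 ± 0.10, 0.51 ± 0.10 and 0.46 ± 0.10 (adjusted p of 0.00713, 8.15e-05 and 0.000278). The full-length libraries of Itgb4 overlapped the control, and without full-length library 3 that call was lost (adjusted p = 0.0504). Itga3, Itga6, Itga7 and Itgb4 were thus called lower in each comparison with control, though the full-length calls of Itga6 and Itgb4 were lost without 1 library, as stated.

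Of the chains known from leukocytes and platelets, Itga4 and Itgb2 were called lower in each construct group. Integrin α4 (Itga4), a receptor for VCAM1 and fibronectin, measured 2.14, 1.82, 1.77 and 1.73 CPM in control and 1.22, 0.902, 0.833 and 0.534 with full-length, and its other construct means were 0.647 ± 0.169 and 0.618 ± 0.105. It fell by 1.09 ± 0.28, 1.51 ± 0.29 and 1.58 ± 0.29 (adjusted p of 0.00119, 3.64e-05 and 2.3e-05), with no library overlapping the control. Itgb2, the common leukocyte β chain, fell by 1.81 ± 0.40, 1.30 ± 0.37 and 1.20 ± 0.37 (adjusted p of 0.000256, 0.003 and 0.00535) from a control mean of 1.23 ± 0.396 CPM, and 1 delta-IDR library reached the control range. Its α partner Itgal fell with full-length by 0.49 ± 0.10 (adjusted p = 0.000123), from 14.3 ± 0.795 to 10.2 ± 0.439 CPM. Itgal was not called with delta-IDR (12.7 CPM, adjusted p = 0.13) or delta-CC-LCD (12.9 CPM, adjusted p = 0.183).

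Itgb7, a partner of α4 and αE, fell with delta-IDR by 0.37 ± 0.13 (adjusted p = 0.0242) and with delta-CC-LCD by 0.52 ± 0.14 (0.00309), from 29.5 ± 3.53 CPM to 22.8 ± 1.75 and 20.5 ± 3.74, where 1 delta-CC-LCD library overlapped the control. The former call was lost without control library 1 or 3 or delta-IDR library 1 (adjusted p of 0.062 to 0.0747). Itga2b, the platelet fibrinogen receptor chain, fell by 0.67 ± 0.29 (0.0418) with delta-IDR and 0.72 ± 0.29 (0.0308) with delta-CC-LCD. Its libraries overlapped the control. Both Itga2b calls were lost with DESeq2 (0.0848 and 0.0702) and without control library 1 or 2, delta-IDR library 1, 2 or 4, or delta-CC-LCD library 2, 3 or 4 (0.0596 to 0.153). Itgae, the E-cadherin receptor chain of lymphocytes, and Itgad were called in no comparison with control.

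In all, 15 of 22 genes were called with full-length, 5 higher and 10 lower, where 59.1% of all 14118 tested genes were called, 30.3% higher and 28.7% lower. With delta-IDR the count was also 15, 5 higher and 10 lower, against 64.4% of all genes (32.8% higher, 31.6% lower). With delta-CC-LCD it was 16, 5 higher and 11 lower, against 64.6% (31.9% higher, 32.7% lower). These shares of 68.2%, 68.2% and 72.7% lie near the background. The median log2 change over the 22 genes was -0.20, -0.19 and -0.30, beside -0.01, -0.01 and -0.02 over all genes. The 3 comparisons share the control group. Of 6 tested fibroblast markers, 4, 5 and 4 fell in the same comparisons and 0 rose, with Pdgfrb at -1.33, -0.70 and -1.28, and their part in these changes was not tested.

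**Figure D3:**
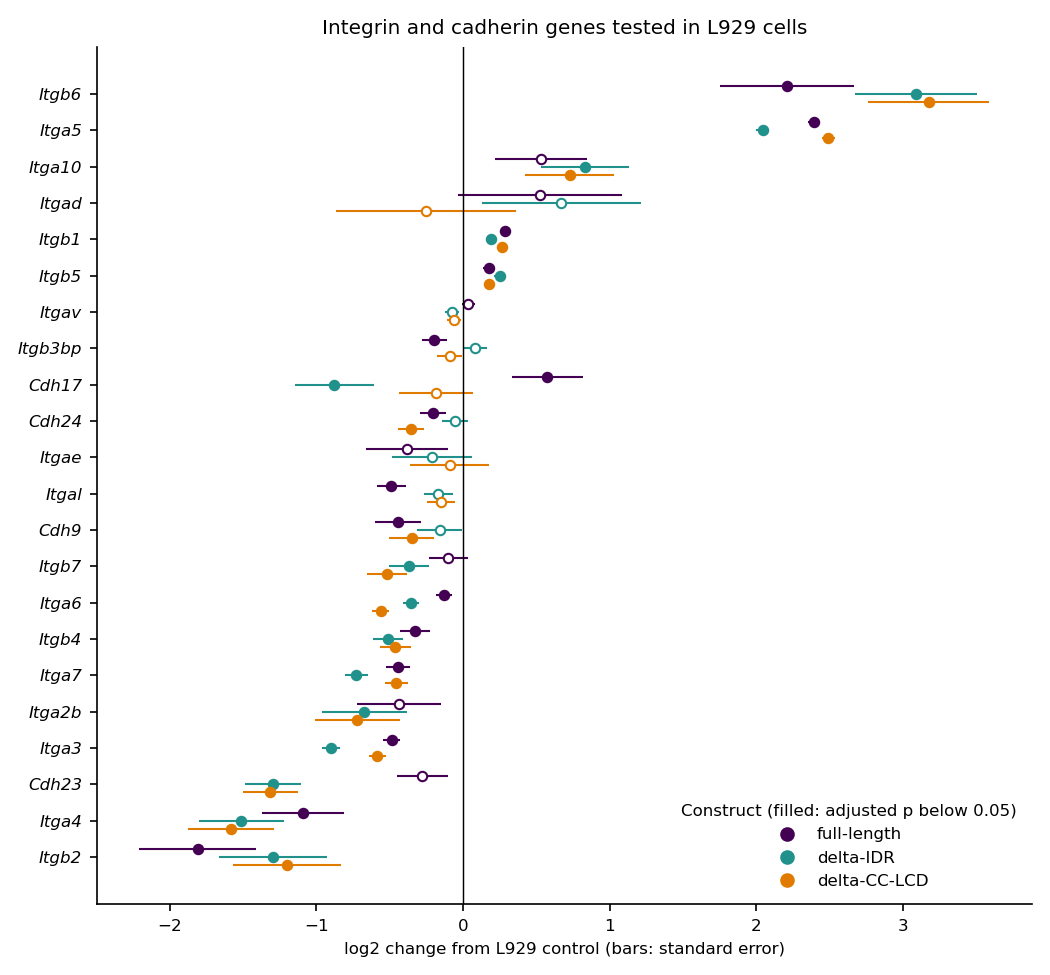
Log2 change against the shared control for each tested gene in the 3 construct groups of L929, with standard errors as bars and filled points for an adjusted p below 0.05. Itga5 and Itgb6 lie furthest to the higher side, and Itgb2, Itga4 and Cdh23 are among the lowest.

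Among the 4 cadherins tested in L929, Cdh23 separated the truncated constructs from the others. It measured 16.5, 14.7, 16.2 and 14.05 CPM in control and 12.8, 10.5, 15.6 and 11.7 with full-length, but 6.37, 4.87, 6.29 and 7.46 with delta-IDR and 9.45, 6.22, 4.78 and 4.26 with delta-CC-LCD. All libraries of both truncations lay below all control and full-length libraries. Cdh23 fell against control by 1.30 ± 0.19 (adjusted p = 9.42e-06) and 1.31 ± 0.19 (8.31e-06), and against full-length by 1.02 ± 0.19 (0.0007) and 1.04 ± 0.19 (0.0011). Full-length against control gave -0.28 ± 0.18 (0.188).

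Cdh17 measured 4.34, 4.32, 4.78 and 4.56 CPM in control, 7.11, 7.16, 7.26 and 5.28 with full-length, 2.51, 2.41, 1.60 and 3.26 with delta-IDR and 7.18, 3.17, 3.00 and 2.48 with delta-CC-LCD. The delta-IDR libraries lay below all control and full-length libraries, and 1 delta-CC-LCD library stood at the full-length level. It fell with delta-IDR by 0.88 ± 0.27 against control (adjusted p = 0.00739) and by 1.45 ± 0.26 against full-length (0.000309). The rise of 0.57 ± 0.24 with full-length (0.0468) was lost with DESeq2 (0.0534), without any 1 of the 4 control libraries, and without full-length library 1, 2 or 3 (0.0746 to 0.101). The fall of 0.76 ± 0.25 for delta-CC-LCD against full-length (0.0353) was lost without full-length library 1, 2 or 3 or delta-CC-LCD library 2, 3 or 4 (0.0849 to 0.116) and in a fit of these groups alone (0.125).

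The type II cadherin Cdh24 had means of 14.7 ± 0.667, 12.7 ± 1.09, 14.1 ± 1.15 and 11.5 ± 0.56 CPM and fell with delta-CC-LCD by 0.35 ± 0.09 (adjusted p = 0.000951). Its full-length call of -0.21 ± 0.09 (0.0441) was lost with DESeq2 (0.0811) and without control library 1, 2 or 3 or full-length library 1 or 4 (0.0503 to 0.169). Cdh9, also of type II, fell with full-length by 0.45 ± 0.15 (0.0145), a call lost without control library 2 (0.0533). With delta-CC-LCD the Cdh9 call of -0.35 ± 0.15 (0.0468) was lost without control library 1, 2 or 4 or delta-CC-LCD library 1, 3 or 4 (0.054 to 0.23) and with DESeq2 (0.0989). Itgb3bp, which is no integrin, measured -0.20 ± 0.08 with full-length (0.0444), lost without control library 2, 3 or 4 or full-length library 1, 2 or 3 (0.054 to 0.133) and with DESeq2 (0.0813).

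Between constructs, Itga5 was lower with delta-IDR than with full-length by 0.35 ± 0.04 (adjusted p = 6.66e-08) and than with delta-CC-LCD by 0.45 ± 0.04 (4.65e-10), while delta-CC-LCD against full-length gave 0.10 ± 0.04 (0.0856). Itga3 was lower with delta-IDR than with full-length by 0.41 ± 0.06 (5.66e-06) and than with delta-CC-LCD by 0.32 ± 0.06 (0.00026). For Itga7 these differences were 0.28 ± 0.08 (0.0102) and 0.27 ± 0.08 (0.0155), the latter lost without delta-IDR library 2 (0.0565). Itga6 had another order, lower than full-length by 0.22 ± 0.06 with delta-IDR (0.0032) and by 0.43 ± 0.06 with delta-CC-LCD (2.76e-06). Itga6 was higher with delta-IDR than with delta-CC-LCD by 0.21 ± 0.06 (0.00772), which was lost without delta-CC-LCD library 3 (0.0571).

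Itgb1 and Itgb5 were not called between any constructs, with Itgb5 at 0.00 ± 0.04 (adjusted p = 0.95) for delta-CC-LCD against full-length and 0.07 ± 0.04 (0.221) for delta-IDR against delta-CC-LCD. Their differences between constructs ran from -0.09 ± 0.04 (adjusted p = 0.0586) for Itgb1 in delta-IDR against full-length to 0.08 ± 0.04 (0.177) for Itgb5 in the same comparison. Itgal was higher than with full-length by 0.32 ± 0.10 with delta-IDR (0.0217) and 0.34 ± 0.10 with delta-CC-LCD (0.0197). The former was lost without full-length library 2 or delta-IDR library 1, 2 or 3 (0.0528 to 0.0655), and the latter without delta-CC-LCD library 2 or 3 (0.0684 to 0.0731) and in a fit of these groups alone (0.0505). Itgb6 was higher than with full-length by 0.88 ± 0.32 with delta-IDR (0.0455) and 0.97 ± 0.32 with delta-CC-LCD (0.0335), with overlapping libraries. Each Itgb6 call was lost without any 1 of 6 libraries (full-length 1, 2 or 4, delta-IDR 1, 2 or 3, delta-CC-LCD 1, 3 or 4, with adjusted p of 0.0527 to 0.153), and the delta-IDR one with DESeq2 too (0.0765).

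Itgb7 was lower with delta-CC-LCD than with full-length by 0.42 ± 0.14 (adjusted p = 0.0426), lost without full-length library 1 or 3 or delta-CC-LCD library 2, 3 or 4 (0.117 to 0.138). Cdh24 was higher with delta-IDR than with delta-CC-LCD by 0.30 ± 0.09 (0.0164), lost without delta-IDR library 3 or delta-CC-LCD library 3 (0.0622 to 0.073). Itgb3bp was higher with delta-IDR than with full-length by 0.28 ± 0.08 (0.0145), lost without full-length library 3 (0.0522). For delta-IDR against full-length 9 of 22 genes were called, 3 higher and 6 lower, where 25.3% of all genes were (11.7% higher, 13.6% lower). For delta-CC-LCD against full-length the count was 6 (2 higher, 4 lower) with a background of 19.3% (8.42% higher, 10.9% lower), and in a fit of these groups alone it was 2. For delta-IDR against delta-CC-LCD it was 5 (2 higher, 3 lower) with a background of 22.3% (11.6% higher, 10.7% lower), and 3 with libraries summed in pairs. Without delta-IDR library 3, the library with stray Dcn and Lum counts, Itga5 measured -0.34 and Cdh17 -1.29 against full-length. With libraries summed in pairs, calls were lost for Itgb6 and Itgb7 with delta-CC-LCD against full-length (edgeR adjusted p of 0.0808 and 0.131). Also lost were Itgb6, Itgal and Itgb3bp with delta-IDR against full-length (0.0521 to 0.0955). Between delta-IDR and delta-CC-LCD, Itga6, Cdh24 and Ctnnd1 lost theirs (0.0825 to 0.0953).

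Among cytoplasmic linkers of integrins in L929, 13 of 23 tested genes rose and 4 fell with full-length, 15 rose and 5 fell with delta-IDR, and 14 rose and 6 fell with delta-CC-LCD. Of all genes 59.1%, 64.4% and 64.6% were called in these comparisons, about equally in both directions. The median log2 changes were 0.16, 0.22 and 0.15. Like the other partner lists below, this one was chosen with earlier results of these data known, so its counts are a description. Tensin 1 (Tns1), which links β integrin tails to actin, rose by 2.11 ± 0.04, 1.72 ± 0.04 and 2.32 ± 0.04 (adjusted p of 3.07e-27, 6.49e-25 and 3.2e-28). Vinculin (Vcl), which tightens the link of talin to actin, rose by 1.33 ± 0.06 with full-length (2.54e-18) and 1.26 ± 0.06 with delta-CC-LCD (8.29e-18). Zyxin (Zyx), a focal adhesion protein that senses tension, rose by 1.16 ± 0.05 and 1.07 ± 0.05 with full-length and delta-IDR, and tensin 2 (Tns2) by 1.06 ± 0.05, 0.99 ± 0.05 and 1.12 ± 0.05. The actin crosslinker Actn4 rose by 0.80 ± 0.03 with delta-CC-LCD, and the scaffold Bcar1 by 1.15 ± 0.05 with delta-IDR. Changes are given only for the smallest p. Each linker named so far had higher means in every construct group. In control, full-length, delta-IDR and delta-CC-LCD, Vcl had means of 40.6, 102, 85.2 and 97.4 CPM and Zyx 133, 296, 279 and 240. Those of Actn4 were 462, 734, 714 and 804 CPM and those of Bcar1 81.7, 184, 182 and 170. In the same order, the linkers Src (50.8, 30.2, 30.9 and 27.8 CPM) and Tgfb1i1 (24.3, 16.4, 17.1 and 14.8) had lower construct means.

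Of the integrin ligands tested in L929, 6 of 13 rose and 3 fell with full-length, 5 rose and 4 fell with delta-IDR, and 5 rose and 3 fell with delta-CC-LCD. These counts lie near the 59.1%, 64.4% and 64.6% of all genes called. Cyr61, a matricellular ligand of αv and α6 integrins, rose by 4.92 ± 0.07, 4.64 ± 0.07 and 4.32 ± 0.06 (adjusted p of 1.04e-27, 4.18e-27 and 1.22e-26). The laminin chain Lamc1 rose by 1.35 ± 0.05, 1.04 ± 0.05 and 1.38 ± 0.05, whereas the laminin chain Lamb2 fell by 0.38 ± 0.05 with delta-IDR and 0.51 ± 0.05 with delta-CC-LCD. Thbs2 rose by 0.53 ± 0.04, 0.18 ± 0.04 and 0.49 ± 0.04. Vcam1, a ligand of α4 integrins, fell with full-length by 0.78 ± 0.10.

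Of the catenins and other cadherin partners tested in L929, 3 of 9 rose in each comparison with control, and 3 fell with full-length, 2 with delta-IDR and 3 with delta-CC-LCD. These counts, too, lie near the 59.1%, 64.4% and 64.6% of all genes called. Nectin1, an immunoglobulin-type adhesion receptor, rose by 2.02 ± 0.07, 1.64 ± 0.07 and 1.89 ± 0.07, while its relative Nectin2 fell by 1.08 ± 0.09, 1.00 ± 0.09 and 1.69 ± 0.10. The p120 family members Pkp4 and Arvcf moved apart. Pkp4 rose by 0.87 ± 0.04, 0.75 ± 0.04 and 1.07 ± 0.04, and Arvcf fell by 0.91 ± 0.09, 0.75 ± 0.09 and 1.21 ± 0.09. Ctnnd1 had means of 33.8 ± 3.74, 29.6 ± 2.98, 30.1 ± 2.88 and 25.5 ± 1.34 CPM and fell with delta-CC-LCD by 0.40 ± 0.08 (adjusted p = 7.75e-05). With full-length its call of -0.19 ± 0.08 (0.0434) was lost without control library 1 or full-length library 1, 2 or 4 (0.083 to 0.243) and with DESeq2 (0.0926), and with delta-IDR it measured -0.16 (0.0727). Without delta-IDR library 3 the delta-IDR change against control was -0.20 and was called (edgeR adjusted p = 0.0466). Ctnnd1 was higher with delta-IDR than with delta-CC-LCD by 0.24 ± 0.08 (0.0361), lost with DESeq2 (0.0652) and without any 1 of the delta-CC-LCD libraries or delta-IDR library 1, 2 or 3 (0.0531 to 0.137). Against full-length, Ctnnd1 measured 0.03 ± 0.08 with delta-IDR (0.862) and -0.21 ± 0.08 with delta-CC-LCD (0.0715).

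In neurons, Cdh2, the most abundant of these genes, was called in no comparison, with adjusted p of 0.521 to 0.953, and its libraries ranged from 447 to 521 CPM. The FRMD5 partner Itgb5 measured 7.53 to 14.9 CPM in the 28 libraries and was called in none of the neuron comparisons (adjusted p of 0.614 to 0.981). Itgb5 measured -0.01 ± 0.14 for DEX and -0.12, 0.15, 0.03, 0.06 and -0.09 (standard errors of 0.14 to 0.15) for interfering peptide at 1, 3, 10, 30 and 100 µM, and its slope on log10 dose was -0.01 ± 0.06. The αv partner Itgb8 (48.8 to 72.7 CPM) and the fibronectin, laminin and collagen receptor chains Itga5 (13.2 to 21.1), Itga3 (9.01 to 14.7) and Itga1 (9.09 to 15.02) were called in none either. Nor were the type II cadherins Cdh24 (38.9 to 57.3 CPM), Cdh11 (35.3 to 47.9), Cdh6 (28.7 to 38.9) and Cdh10 (20.9 to 32.2). The remaining genes without a call, Itga9, Cdh12, Itga8, Cdh20, Cdh9, Itga7, Itga2b, Itga10, Itgb4, Itgae, Itgam, Itgal and Itgb2, stayed at or below 9.87 CPM in every library.

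DEX with control peptide, against control peptide without DEX, lowered Itga4 and raised VE-cadherin (Cdh5). Itga4 measured 21.4, 20.1, 21.8 and 21.5 CPM without DEX and 13.8, 13.9, 15.8 and 15.5 with it. The groups did not overlap. Itga4 fell by 0.52 ± 0.10 (adjusted p = 0.0007) and by 0.51 with libraries summed in pairs (adjusted p = 0.0294). A part of the Itga4 count is uncertain through Cerkl, as above. Itgb3bp, no integrin, fell by 0.54 ± 0.11 (0.00128), from a mean of 14.5 ± 1.20 to 10.0 ± 1.69 CPM. Its call was lost with libraries summed in pairs (edgeR adjusted p = 0.0512).

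Cdh5, the cadherin of endothelial junctions, measured 18.29, 15.1, 19.2 and 15.7 CPM without DEX and 23.3, 20.95, 22.2 and 21.95 with DEX, with no overlap, and rose by 0.37 ± 0.09 (adjusted p = 0.00366). This call was lost with libraries summed in pairs (edgeR adjusted p = 0.0776). Endothelial markers summed to 94.7 to 110 CPM without and 99.1 to 111 CPM with DEX. Of these 6 markers Flt1 rose by 0.35 ± 0.10 (0.0127) and Kdr fell by 0.25 ± 0.08 (0.0325). Their part in the Cdh5 difference was not tested. The collagen receptor chain Itga11 fell by 1.41 ± 0.42 (0.024) from 1.08 ± 0.355 to 0.398 ± 0.191 CPM with overlapping libraries, and the call was lost without library 2 or 4 of the group without DEX or library 1, 2 or 3 of the group with DEX (0.0621 to 0.0887).

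These 4 of 39 genes, 1 higher and 3 lower, compare with 10.8% of all 17837 tested genes, of which 5.44% were higher and 5.35% lower. With libraries summed in pairs 1 member, Itga4, was called, against 1.63% of genes. Itga6 at 0.19 ± 0.06 (adjusted p = 0.0551) and Itga8 at -0.54 ± 0.19 (0.0529) came close to the threshold.

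**Figure D4:**
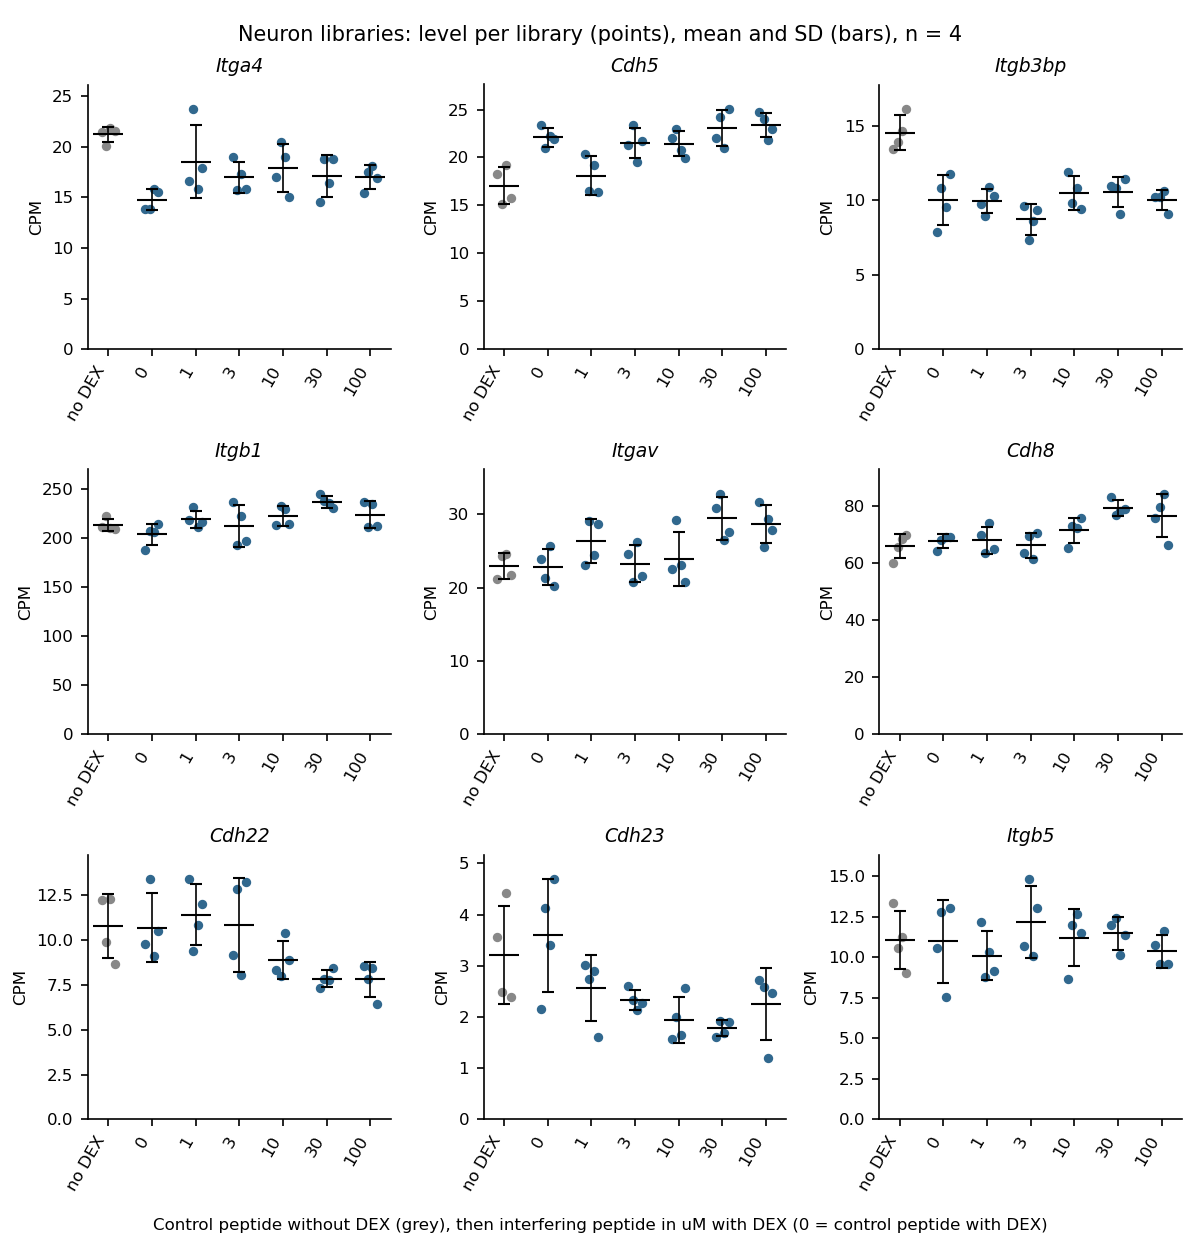
Level per library (points) in CPM of members named for neurons and of Itgb5, with mean and SD (bars, n = 4). Groups run from control peptide without DEX (grey) through control peptide with DEX (marked 0) to interfering peptide at 1 to 100 µM with DEX. Itga4 lies at 20.1 to 21.8 CPM without DEX and at 13.8 to 15.8 CPM with DEX and control peptide.

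Interfering peptide was compared at each dose with control peptide and DEX, a group shared by the 5 comparisons. Control peptide was given at 100 µM, so peptide amounts match only at the top dose. Control libraries below are those of control peptide with DEX. At 1 µM no member passed edgeR's threshold, where 2.29% of all genes did (1.4% higher, 0.891% lower), although 10 of 39 had an unadjusted p under 0.05. DESeq2 called 1 member at 1 µM. At 3 µM 4 of 39 were called (1 higher, 3 lower) against a background of 5.25% (2.88% higher, 2.37% lower). At 10 µM 1 was called (lower) against 5.38% (3.17% higher, 2.21% lower). At 30 µM 7 were called (3 higher, 4 lower) against 15.9% (8.62% higher, 7.26% lower), and at 100 µM 6 (3 higher, 3 lower) against 23.4% (11.9% higher, 11.5% lower). With libraries summed in pairs these counts were 0, 0, 0, 2 and 1, against 0.439%, 0.498%, 0.532%, 3.45% and 8.82% of all genes. The median log2 change over the 39 genes was -0.01, -0.08, -0.04, 0.00 and 0.00, beside 0.00, 0.01, 0.00, 0.00 and -0.01 over all genes.

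At the upper doses the integrin chains Itgb1 and Itgav were higher. Itgb1 measured 188, 207, 206 and 214 CPM with control peptide, 245, 237, 235 and 230 at 30 µM and 236, 212, 234 and 212 at 100 µM. The 30 µM libraries lay above all controls, and those at 100 µM overlapped them. It rose by 0.22 ± 0.05 at 30 µM (adjusted p = 0.00224). At 100 µM the call of 0.14 ± 0.05 (0.0493) was lost with DESeq2 (0.0523), with the replicate block (0.0587), and without control library 1, 2 or 3 or 100 µM library 1 or 3 (0.0645 to 0.204).

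Itgav measured 23.9, 21.3, 25.6 and 20.2 CPM with control peptide, 30.9, 32.8, 26.5 and 27.6 at 30 µM and 31.7, 25.6, 29.4 and 27.9 at 100 µM. The groups were apart at 30 µM and touched at 100 µM. Itgav rose by 0.37 ± 0.10 (adjusted p = 0.00672) and 0.33 ± 0.10 (0.0109), the latter lost without control library 4 (0.0524). The αv partner Itgb8, known for activating latent TGF-β in brain, measured 0.17 ± 0.08 (0.161) and 0.18 ± 0.08 (0.113) at these doses. With libraries summed in pairs neither Itgb1 nor Itgav was called at 30 µM (adjusted p of 0.0883 and 0.0703).

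The laminin receptor chain Itga6 was lower at 3 µM by 0.25 ± 0.06 (adjusted p = 0.0176) and at 30 µM by 0.20 ± 0.06 (0.0312). Its control libraries measured 86.1, 102, 88.3 and 106 CPM, and the 3 µM libraries 84.1, 74.5, 81.4 and 81.5. Control libraries 2 and 4 were the high ones, and the 3 µM call was lost without either of them or without 3 µM library 2 (0.0707 to 0.11). The 30 µM call was lost without control library 2 or 4 or 30 µM library 1 or 3 (0.077 to 0.163). Itga2, a collagen receptor chain, measured -0.68 ± 0.20 at 3 µM (0.0363), lost without control library 2 or 4 or 3 µM library 2, 3 or 4 (0.0624 to 0.185).

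Cadherins of neurons moved in both directions. The type II cadherin Cdh8 measured 64.3, 68.2, 69.2 and 69.3 CPM with control peptide, 83.2, 76.9, 78.4 and 79.2 at 30 µM and 75.8, 79.9, 84.5 and 66.6 at 100 µM. All 30 µM libraries lay above the controls, and 1 library at 100 µM did not. Cdh8 rose by 0.23 ± 0.06 at 30 µM (adjusted p = 0.00701). The 100 µM call of 0.18 ± 0.06 (0.0274) was lost without control library 1 or 100 µM library 2 or 3 (0.0856 to 0.152). Both Cdh8 calls were lost with libraries summed in pairs (edgeR adjusted p of 0.0938 and 0.129). Cdh4 measured 115, 110, 106 and 110 CPM with control peptide and 86.8, 95.2, 96.1 and 97.1 at 100 µM. These groups did not overlap, and Cdh4 fell by 0.23 ± 0.05 (0.000967), also with libraries summed in pairs (0.0423). At 1, 3, 10 and 30 µM Cdh4 measured 0.14, -0.13, -0.12 and 0.11, with none called.

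Cdh22, a type II cadherin of the brain, measured 9.76, 13.4, 9.12 and 10.5 CPM with control peptide, 7.32, 7.81, 7.77 and 8.46 at 30 µM, and 8.53, 7.83, 8.44 and 6.45 at 100 µM. The libraries of both doses lay below all controls. It fell by 0.45 ± 0.15 at 30 µM (adjusted p = 0.0292) and by 0.45 ± 0.15 at 100 µM (0.0196). The call at 30 µM was lost without control library 2 or 4 or 30 µM library 1, 2 or 3 (0.0509 to 0.166), and the call at 100 µM without control library 2, the high one, or 100 µM library 4 (0.0886 to 0.135). Both Cdh22 calls were lost with libraries summed in pairs (edgeR adjusted p of 0.179 and 0.13).

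Cdh23 measured 2.15, 4.14, 3.40 and 4.70 CPM with control peptide, 1.61, 1.92, 1.69 and 1.90 at 30 µM and 2.72, 2.59, 1.21 and 2.46 at 100 µM. Control library 1 lay near the treated libraries, though above all those at 30 µM. It fell by 1.01 ± 0.25 at 30 µM (adjusted p = 0.00364). The calls of -0.88 ± 0.25 at 10 µM (0.025) and -0.68 ± 0.24 at 100 µM (0.0344) were lost without control library 2 or 4, 10 µM library 1 or 3, or 100 µM library 3 (0.0758 to 0.172), and the latter with DESeq2 (0.0557). Cdh18, a type II cadherin, fell by 1.17 ± 0.30 at 30 µM (0.00562), from 2.27 ± 0.851 to 1.00 ± 0.421 CPM, with overlapping libraries. With pairs summed Cdh18 (0.0476) and Cdh23 (0.05 after rounding, under the threshold) were the members called at 30 µM.

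At 3 µM alone, Cdh13 measured 0.28 ± 0.07 (adjusted p = 0.0249) and Cdh7 -0.34 ± 0.11 (0.0453). The Cdh13 call was lost without control library 2 or 4 or 3 µM library 2 or 3 (0.0719 to 0.115). That of Cdh7 was lost without control library 1, 3 or 4 or 3 µM library 1, 2 or 4 (0.0567 to 0.2) and with the replicate block (0.0592). In a fit of the 2 groups alone 1 of the 4 genes called at 3 µM, Cdh13, kept its call.

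Over the 20 libraries with interfering peptide, a slope on log10 dose called 4 of 38 tested members (3 higher, 1 lower), where 19.4% of 17349 genes were called (9.46% higher, 9.91% lower). Cdh22 fell by 0.32 ± 0.06 log2 units per log10 step of dose (adjusted p = 0.000421). Cdh5 rose by 0.16 ± 0.04 (0.00321) and Cdh8 by 0.12 ± 0.03 (0.00445). The slope of Itgb3, a vitronectin and fibrinogen receptor chain at 0.796 to 2.22 CPM in these libraries, was 0.37 ± 0.12 (0.0218) and was lost without 100 µM library 1 (0.0531). With libraries summed in pairs Cdh22 (0.0123), Cdh5 (0.0435) and Cdh8 (0.0466) were called.

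Cdh5 measured 20.4, 16.5, 19.2 and 16.4 CPM at 1 µM and 24.7, 24.0, 21.8 and 23.0 at 100 µM, without overlap. Against control peptide with DEX it was not called at any dose, with -0.29 ± 0.09 at 1 µM (adjusted p = 0.0658). Endothelial markers summed to 89.4 to 101 CPM at 1 µM and 100 to 110 CPM at 100 µM, and Flt1 (0.19 ± 0.04, adjusted p = 0.00106) and Pecam1 (0.12 ± 0.04, 0.0365) also had slopes above 0. Their part in the Cdh5 slope was not tested.

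The list of catenins and other cadherin partners also holds nectins, which are immunoglobulin-type adhesion receptors. At 100 µM 7 of its 12 tested genes rose and 0 fell, where 11.9% of all genes rose and 11.5% fell. The list was chosen with earlier results of these data known, so this share is a description and no test. Nectin3 measured 64.9, 66.4, 68.8 and 66.7 CPM with control peptide and 85.0, 80.9, 82.3 and 80.8 at 100 µM, and rose by 0.30 ± 0.05 (adjusted p = 6.28e-06). Ctnnd1 measured 36.4, 32.8, 40.0 and 31.4 CPM with control peptide and 46.4, 45.2, 41.8 and 47.7 at 100 µM, and rose by 0.37 ± 0.09 (0.00346). In both genes all libraries at 100 µM lay above all controls. The α-catenin of neurons, Ctnna2, rose by 0.19 ± 0.04 (0.000972), Pkp4 by 0.21 ± 0.05 (0.00266), β-catenin (Ctnnb1) by 0.14 ± 0.04 (0.00343), Ctnna1 by 0.19 ± 0.05 (0.0044) and Nectin2 by 0.28 ± 0.08 (0.0116).

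Ctnnd1 measured 0.15 (adjusted p = 0.453), 0.21 (0.199) and 0.23 (0.149) at 1, 3 and 10 µM, and rose by 0.34 at 30 µM (0.0107), a call lost without 30 µM library 3 (0.062). Its slope was 0.11 ± 0.04 per log10 step (0.0402), and was lost without 1 µM library 1, 3 or 4, 3 µM library 4, 30 µM library 3 or 100 µM library 1, 2 or 4 (0.0506 to 0.0978). DEX alone gave Ctnnd1 -0.15 (0.314). With libraries summed in pairs 3 partners rose at 100 µM, namely Nectin3 (0.00377), Pkp4 (0.0498) and Ctnnd1 (0.048). Summing ended the Ctnnd1 calls at 30 µM (edgeR adjusted p = 0.112) and for the slope (0.136). The neuron markers Map2 (0.23 ± 0.06), Gad1 (0.19 ± 0.05) and Snap25 (0.23 ± 0.07) also rose at 100 µM, and their part in these changes was not tested.

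**Figure D5:**
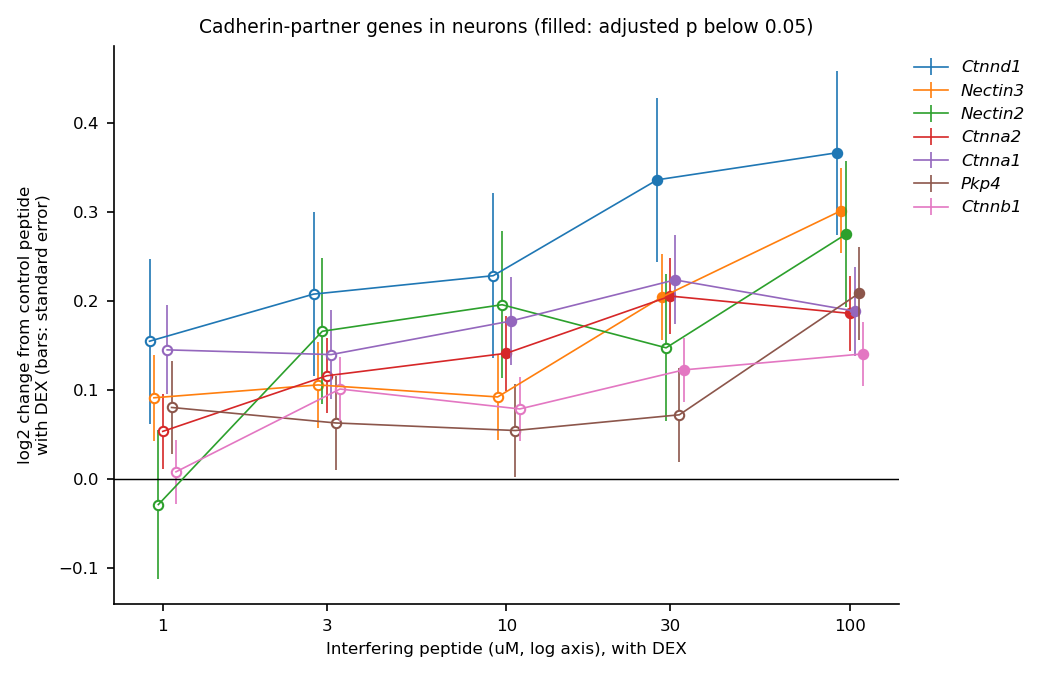
Log2 change in neurons of the 7 catenins and other cadherin partners, of 12 tested, that were called higher at 100 µM. Tested partners without a call at 100 µM are not drawn. Each dose of interfering peptide is set against control peptide with DEX. Bars are standard errors, and filled points mark an adjusted p below 0.05. Nectin3 reaches 0.30 and Ctnnd1 0.37 at 100 µM. The 5 comparisons share their control group.

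In neurons DEX raised 1 of 22 integrin linkers, Tns1 (0.31 ± 0.09, adjusted p = 0.0248), and lowered 1, Vcl (-0.28 ± 0.09, 0.0356), where 10.8% of all genes were called. The count of 2 linkers fell to 0 without library 4 of the group without DEX or library 1 of the group with DEX, and to 1 without library 1, 2 or 3 of the former or library 3 or 4 of the latter. Of 24 ligands 5 rose and 1 fell, beside 5.44% and 5.35% of all genes. Among them were Thbs1 (0.60 ± 0.08, 7.7e-07), Cyr61 (0.59 ± 0.09, 1.08e-05) and Mfge8 (0.33 ± 0.06, 0.000128), which rose, and tenascin C (Tnc), which fell by 0.26 ± 0.05 (0.00107). Of 12 catenins and partners, Nectin3 fell by 0.16 ± 0.05 (0.0254) and Nectin2 rose by 0.26 ± 0.08 (0.0406). This count of 2 fell to 0 without library 3 of the group without DEX, and to 1 without library 2 of that group or library 1 or 2 of the group with DEX.

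At 100 µM against control peptide with DEX, 2 of 22 linkers rose and 4 fell, near the 23.4% of all genes called. Src fell by 0.27 ± 0.05 (adjusted p = 0.000262), Tns1 by 0.41 ± 0.09 (0.00125) and Tgfb1i1 by 0.63 ± 0.15 (0.0022), while Lims1 rose by 0.24 ± 0.06 (0.00141). Of the 24 ligands 5 rose and 3 fell. Cyr61 (0.54 ± 0.08, 4.61e-06) and Vcam1 (0.34 ± 0.06, 1.01e-05) rose, and Thbs1 (-0.34 ± 0.08, 0.000967) and fibronectin (Fn1, -0.26 ± 0.06, 0.00224) fell.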

How the data were processed

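Gene read counts were used as the authors deposited them, in 1 table per cell type (16 L929 and 28 neuron libraries), together with the gene lengths in those tables. Per the submitters' processing notes, reads were aligned with HISAT2 2.2.1 and the build was mm10; these sources name no counting program, annotation or strand setting. Each table was filtered with filterByExpr, scaled by TMM and fitted over all of its groups with robust quasi-likelihood models in edgeR 4.0.16 (limma 3.58.1, R 4.3.3). Two-sided p-values were adjusted by Benjamini-Hochberg over all genes tested in the table, and a gene is called below 0.05. CPM are scaled by TMM, and RPKM divide them by gene length; ± after a log2 change is its standard error and after a level its SD (n = 4). Alternatives were RLE scaling, no filter, DESeq2 1.42.0, only the groups compared, a replicate block, each library left out, libraries summed in pairs and dose as a rank. The code was tested on simulated counts.

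The genes and partner lists were chosen with earlier results of these data known. In each comparison the text names Itgb5 and Ctnnd1 and up to 10 called genes with the smallest p in each direction; for levels, genes reaching a group mean of 10 CPM; and, of each partner list, up to 4 genes with the smallest p in the L929 comparisons with control and in the DEX and 100 µM comparisons, with further called partners at 100 µM named after their values were seen. Replicate numbers name libraries and do not pair them.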

Additional observations from a re-analysis of the deposited data

Results flagged for a closer look

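Cdh17 was called in opposite directions against the L929 control in 2 construct groups, higher with full-length FRMD5 and lower with delta-IDR. The tested difference between these groups was -1.45 on the log2 scale (adjusted p = 0.000309, edgeR), with every delta-IDR library below every full-length library. The full-length rise against control was lost in 7 edgeR fits with 1 library left out (adjusted p of 0.0746 to 0.101) and with DESeq2 (0.0534).

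In 18 of 262 groups of 4 libraries, 1 library stood apart from the other 3 by Dixon's criterion, which flags about 1 group in 20 by chance. In L929 these were Itgb1 in control library 2 (422 CPM), Itgav in delta-CC-LCD library 1 (202), Itga3 in delta-IDR library 3 (24.5), Cdh24 in full-length library 4 (11.1), Itgb4 in delta-CC-LCD library 2 (12.7), Cdh9 in delta-CC-LCD library 4 (3.19) and Cdh17 in full-length library 4 (5.28) and delta-CC-LCD library 1 (7.18). In neurons without DEX, Itgb1 stood at 222.5 CPM in library 2. With DEX and control peptide, Itga11 stood at 0.682 CPM in library 4. At 1 µM these were Itgb8 in library 2 (62.7 CPM), Itga2 in library 3 (4.81) and Itgb3 in library 4 (1.89), and at 3 µM Itga11 in library 3 (0.143). At 10 µM Itgb8 in library 2 (65.6 CPM) and Itga3 in library 1 (9.96) stood apart, at 30 µM Cdh6 in library 4 (37.2), and at 100 µM Itga3 in library 2 (11.5).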

How the results depend on the processing

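Of the 115 results followed for single genes (called integrin and cadherin genes, and Itgb5 and Ctnnd1 in every comparison), no called one changed sign under any alternative run, whereas differences of Itgb5 and Ctnnd1 that were near 0 and not called did in some. Other partner genes were followed only by the counts of their lists. Some of the 115 results were not called and so had no call to lose. DESeq2 ended 13 calls, no filter 8, RLE scaling 1, a replicate block 4 and summing in pairs 37. A fit of only the groups compared, made for 107 of the results, ended 14. Over all fits with 1 library left out, calls were lost 156 times. Counts of called genes moved by over 1.5 times as follows. In a fit of only the groups compared, delta-CC-LCD against full-length gave 2 and 3 µM gave 1. With libraries summed in pairs, delta-IDR against delta-CC-LCD gave 3, DEX gave 1, 3 µM and 10 µM gave 0, 30 µM gave 2 and 100 µM gave 1. Without the filter 10 µM gave 2, and with DESeq2 1 µM gave 1. The cause of these shifts was not tested, and summing leaves 2 values a group. Against the L929 control, summing in pairs ended the full-length calls of Itga6, Cdh24, Itgb3bp and Ctnnd1 (edgeR adjusted p of 0.0867 to 0.169). It also ended those of Itgb7 (0.062) and Itga2b (0.054) with delta-IDR and of Itga10 (0.0606) and Cdh9 (0.0957) with delta-CC-LCD. With 1 library left out, counts ran from 10 to 13 (full-length), 12 to 15 (delta-IDR) and 13 to 16 (delta-CC-LCD) against control, 7 to 10 (delta-IDR) and 2 to 6 (delta-CC-LCD) against full-length and 3 to 6 (delta-IDR against delta-CC-LCD). In neurons they ran from 3 to 5 (DEX), 0 to 1 (1 µM), 0 to 4 (3 µM), 0 to 2 (10 µM), 5 to 8 (30 µM), 3 to 6 (100 µM) and 4 to 6 (slope). Same-numbered libraries of different groups did not deviate together (mean r of 0.00644 in L929 and -0.0201 in neurons), so numbers do not pair them. A replicate block gave counts of 15, 14, 16, 8, 6 and 5 in L929 and 5, 0, 3, 1, 7, 5 and 4 in neurons, in the order above. Genes of few counts, such as Itgb6, Itgb2, Itga2b and Itga11, are limited by depth.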
